A study of Oncorhynchus mykiss with 18 samples.

Results

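Whole rainbow trout (Oncorhynchus mykiss) alevins exposed to 17α-ethinylestradiol (EE2) at a measured 1.13 ng/L were compared with alevins kept in the 0.01% DMSO solvent. Each group held 3 libraries (replicates A, B and C), so 6 of the 18 libraries of the series were compared. Every transcript in the deposited per-sample tables was used. EE2, the synthetic estrogen of contraceptive pills, was given in the water of 9-liter flow-through tanks at 14 °C for 96 hours from hatching. Both groups were sampled at 4 days post-hatch, and RNA of 1 library came from a pool of 3 alevins. Poly(A) RNA was sequenced with the strand kept. Besides these 2 groups the series holds 3 libraries each at 1.57 and 6.22 ng/L and at the higher steps of 16.3 and 55.1 ng/L, and a still higher concentration that its design text names was not analysed here. The labels say neither that each pool had a tank of its own nor whether the exposed water also carried DMSO. The p-values come from a model of all 18 libraries, so they rest on the spread among libraries within every group. That spread may therefore not cover differences between tanks.

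EE2 binds the same nuclear receptors as the hormone estradiol. In egg-laying vertebrates, estrogen bound to the receptor encoded by esr1 turns on liver genes for yolk proteins (vitellogenins) and for egg envelope proteins of the zona pellucida family, and raises esr1 itself. Alevins still live on their yolk sac, whose lipids are taken up, broken down in lysosomes and passed on as lipoproteins, and they are building their skeleton, skin and nervous system.

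The 2 groups differed in depth and in how transcript lengths were handled before deposit. Library totals were 27927337, 28166132 and 26160497 estimated counts at 1.13 ng/L, against 13061428, 12658946 and 17076432 in solvent. The effective length is the transcript length less a correction for fragment size. Among transcripts over 1000 bases, the gap between length and effective length varied from transcript to transcript at 1.13 ng/L, with SDs of 362.5, 368.7 and 358.5 bases. In solvent the gap was the same for every such transcript, with an SD of 0 in each library. Of the other groups, 55.1 ng/L was handled like solvent, whereas 1.57, 6.22 and 16.3 ng/L were handled like 1.13 ng/L. The 6.22 ng/L libraries combined that handling with totals of 15365201 to 16164585, close to those of solvent. For the comparison as a whole, exposure, depth and length handling cannot be told apart, because each library of a group shares all of them. Levels of some genes at 6.22 and 16.3 ng/L are therefore given further below.

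**Figure D1:**
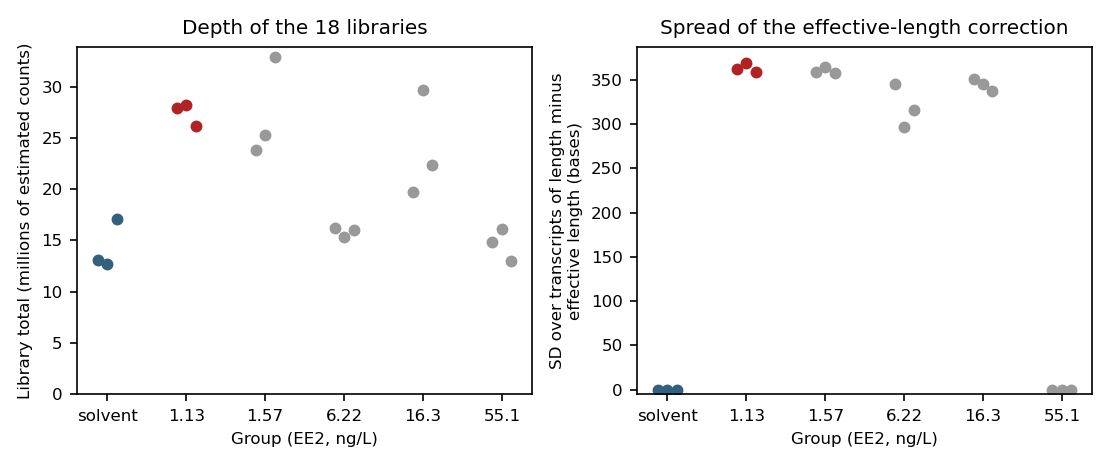
Depth and length handling of the 18 libraries by group. The left panel gives the library total in estimated counts (scaled as on the axis), and the right panel the SD over transcripts of length minus effective length in bases. Each point is 1 library. The 1.13 ng/L libraries (red) lie above the solvent libraries (blue) in both panels, and solvent and 55.1 ng/L share an SD of 0.

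Of 46999 genes and unmatched transcripts tested with edgeR's quasi-likelihood test, 3787 passed an adjusted p of 0.05, which is 8.06%. At 1.13 ng/L 2296 of them were higher (4.89%) and 1491 lower (3.17%). When the test was fitted on the 6 libraries alone, 1624 passed, of which 1171 (72.1%) were higher, against 60.6% in the fit on all libraries. The median log2 fold change (1.13 ng/L over solvent) of all genes tested was 0.002, and the median size among those that passed was 0.63. Of the 3787, 3750 had no overlap between the libraries of the groups, which was true of 29.8% of all genes tested. The count also moved with single libraries. It was 1867 without 1.13 ng/L replicate A, 1350 without 1.13 ng/L replicate B, 1437 and 1528 without solvent replicates A and B.

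The direction of change varied with transcript length. Of 5 bins of equal size, in the shortest, up to 1436 bases, 3.57% were higher and 4.47% lower at 1.13 ng/L, with a median log2 fold change of -0.06. In the longest, from 4337 bases up, 6.97% were higher and 2.12% lower, with a median of 0.06. With the trend on length removed these medians were 0 and -0.04, and 2167 genes were higher and 1603 lower. Gene lists made mostly of short or long transcripts are given below with that trend removed as well.

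The estrogen receptor gene esr1 was about 2.35-fold higher at 1.13 ng/L, and the egg envelope gene zp2.3 appeared at a low level. In CPM (counts per library total, put on one common scale), esr1 had 8.11, 5.93 and 6.09 in the EE2 libraries, against 3.16, 2.15 and 3.19 in the solvent libraries. All EE2 libraries lay above all solvent libraries (log2 fold change 1.23, SE 0.25, adjusted p = 0.0099). Without solvent replicate B the adjusted p of esr1 was 0.0565. The value sums 11 transcripts, and the transcript with the most reads did not pass when fitted alone (log2 fold change 1.34, adjusted p = 0.508). In whole alevins, a lower level cannot be split into fewer cells of a type and less RNA per cell, and likewise for a higher one.

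Zp2.3 had 1.87, 1.86 and 0.484 CPM in the EE2 libraries and 0, 0.0717 and 0.0591 CPM in the solvent libraries. These were 126 reads at 1.13 ng/L and 2 reads in solvent, a ratio of 32.8 with a 95% counting interval of 8.89 to 274, which covers counting error only. Zp2.3 passed with an adjusted p of 0.0123, but not when solvent replicate A (0.0624) or B (0.0504) was left out. The vitellogenin gene vtg3 was near 0 in both groups, with 6 reads at 1.13 ng/L and 2 in solvent (ratio 1.56, interval 0.279 to 15.8, adjusted p = 0.858). At this depth no difference in vtg3 was detectable. Further estrogen receptor genes missed the threshold too. For esr2a the log2 fold change was 0.24 (SE 0.41), and for erb2 it was -0.04 (SE 0.17).

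Of the 8 tested genes matched to the list of estrogen receptors and egg proteins, 2 rose and 1 fell. Over all genes with a symbol 5.11% were higher and 4.37% lower. The one that fell, chga, encodes chromogranin A, a protein of hormone-secreting granules, and was matched only by the shape of its symbol. It had 14.9, 14.3 and 15.3 CPM at 1.13 ng/L, against 22.8, 19.7 and 24.4 CPM in solvent. The remaining members, the membrane estrogen receptor gene gper1 and the egg envelope gene zp3d.1, had log2 fold changes of -0.15 and -0.14.

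Collagen genes, which encode the fibres and networks of the extracellular matrix, were, of the 25 lists, the one in which every tested member was higher at 1.13 ng/L. Of 14 tested, 10 rose and none fell, and their median log2 fold change was 1.11. Over all genes with a symbol 5.11% were higher and 4.37% lower. Their summed level was 4194 to 6411 CPM in the EE2 libraries and 1434 to 2173 CPM in the solvent libraries. Collagen transcripts are long, with a median of 5333 bases, and with the trend on length removed the count stayed at 10 with a median of 1.07. With an offset for effective length 9 rose, with a median of 0.96.

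Type I collagen, the main fibre of bone, skin and tendon, carried most of those reads. Col1a1 had 1506, 1683 and 1055 CPM in the EE2 libraries, against 286, 325 and 460 CPM in the solvent libraries (log2 fold change 1.99, SE 0.25, adjusted p = 0.000457). The lowest EE2 library, replicate C, was still above the highest solvent library, which was also replicate C. Its paralogue col1a1b, with 1974, 2185 and 1403 CPM at 1.13 ng/L against 460, 510 and 731 CPM in solvent, showed the same order of libraries, with a log2 fold change of 1.71. LOC100135811, which the reference table lists under the synonym col1a2, had 1675, 1783 and 1200 CPM at 1.13 ng/L against 386, 420 and 594 CPM in solvent (1.73). These sequences are similar, so reads may have been shared between them. With an offset for effective length the log2 fold changes of these genes were smaller, at 1.6, 1.34 and 1.38 in the order given.

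Fibril-regulating, cartilage and skin collagens also rose, with smaller fold changes. Col5a2a, of the type V collagen that sets fibril width, had 98.1, 117 and 83.7 CPM at 1.13 ng/L, against 54.2, 55.3 and 58.7 CPM in solvent. Its log2 fold change was 0.83 (SE 0.09, adjusted p = 0.000201). Col10a1a, a collagen of mature cartilage cells and, in fish, of bone-forming cells, rose by 0.99 on the log2 scale. Col9a1a, a cartilage collagen, rose by 1.09, and col27a1b, a fibrillar collagen of growing cartilage, by 0.75. Col17a1b, of the anchor between skin and its basement membrane, rose by 1.21. Each of these kept its call when any 1 library was left out. Col9a3, with a log2 fold change of 1.13, missed the threshold when solvent replicate A or B was left out (adjusted p = 0.0526 and 0.0512). Col21a1 had the largest value, 2.22, but its adjusted p was 0.055.

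Some genes for proteins that organise or mineralise that matrix rose as well. Of 23 tested bone and cartilage matrix genes 10 rose, none fell and 22 had a fold change above 0, with a median of 0.71. Over all genes with a symbol 5.11% were higher. The number that rose was 5 without 1.13 ng/L replicate B and 6 without solvent replicate B, and 7 to 12 without any other library. Spp1, the bone protein osteopontin, had 13.9, 14.9 and 11.1 CPM in the EE2 libraries and 5.08, 5.3 and 7.33 CPM in the solvent libraries (log2 fold change 1.17, SE 0.19, adjusted p = 0.00224). Bglapl, related to the bone protein osteocalcin, had 5.19, 6.64 and 4.39 CPM at 1.13 ng/L against 1.24, 1.79 and 2.36 CPM in solvent (1.58). Fmoda, encoding the collagen-binding proteoglycan fibromodulin, had 99.9, 110 and 93.5 CPM at 1.13 ng/L against 56.1, 56.3 and 61 CPM in solvent (0.81). In each of these genes the EE2 and solvent libraries stood apart, as in 3750 of the 3787 genes that passed.

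Chad, encoding the cartilage protein chondroadherin, rose by 1.26, and mmp14b, a membrane protease that cuts collagen, by 0.75. Cilp2, of the cartilage intermediate layer, was among the 10 largest rises of all genes with a symbol (log2 fold change 1.93, adjusted p = 0.00234). Acanb, encoding the cartilage proteoglycan aggrecan, rose by 1.08 (adjusted p = 0.01), with 0.0552 without 1.13 ng/L replicate B and 0.0562 without solvent replicate B. Sparc, encoding the collagen-binding protein osteonectin, had 365, 375 and 302 CPM at 1.13 ng/L, against 188, 185 and 263 CPM in solvent (0.71). Its adjusted p was 0.0141, with 0.0523 and 0.0672 without 1.13 ng/L replicates A and B, and 0.074 and 0.0732 without solvent replicates A and B. Sp7 and sox9, transcription factor genes of bone and cartilage cells, had log2 fold changes of 0.46 and 0.11 and did not pass. Of the 5 matched cartilage and bone marker genes, 4 rose, against 5.11% over all genes with a symbol. These 4, acanb, col9a1a, spp1 and sparc, are already counted above. The summed level of the 5 markers, most of it sparc, was 337 to 418 CPM at 1.13 ng/L, against 205 to 286 CPM in solvent. Whether the share of skeletal cells differed was not tested. Colgalt2, which adds sugar to collagen and was picked after its values were seen, rose by 1.29 (adjusted p = 0.00209).

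**Figure D2:**
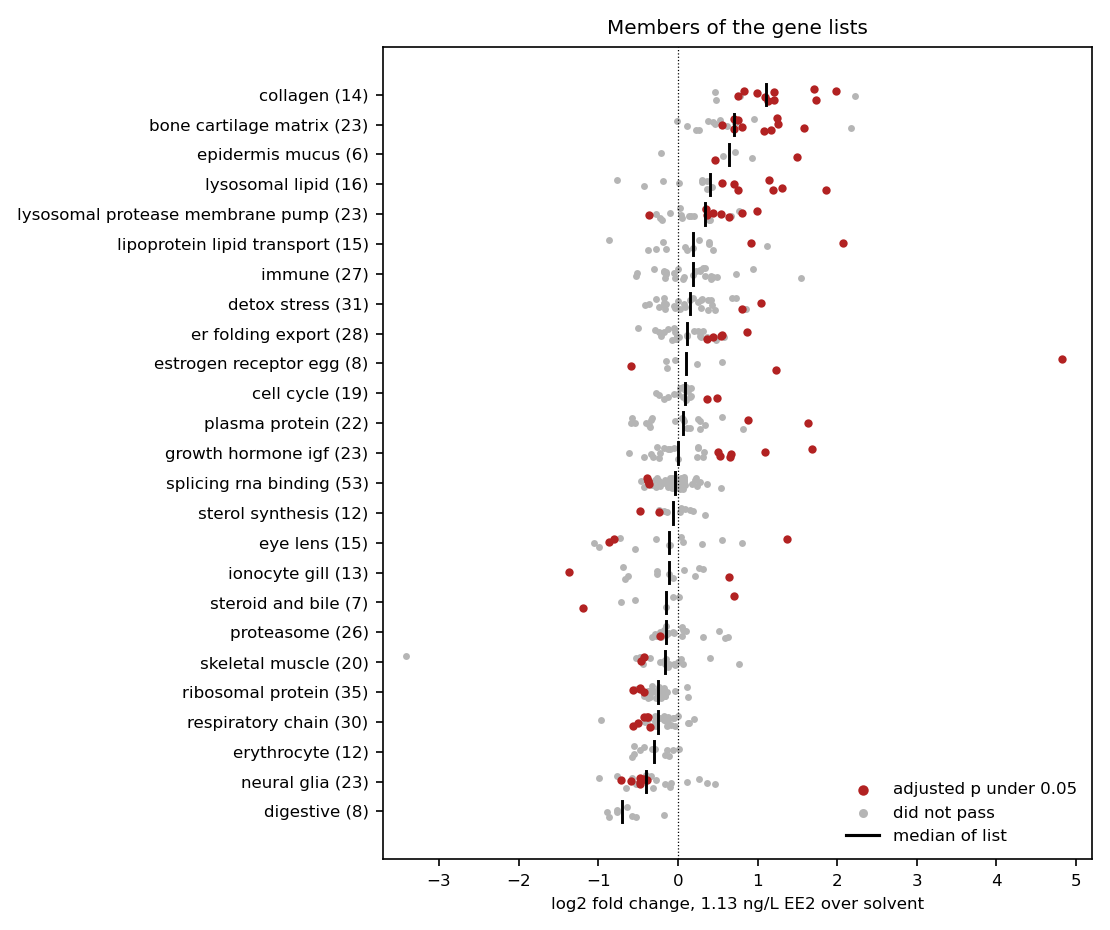
Log2 fold change (1.13 ng/L EE2 over solvent) of each tested member of 25 gene lists. Each point is 1 gene, red where it passed an adjusted p of 0.05 and grey where it did not, the black bar is the list's median, and the number tested is in brackets. Collagens stand highest with a median of 1.11, and the neural and digestive lists lowest with medians of -0.40 and -0.70.

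Of the lysosomal genes for handling lipid, several rose with little spread between libraries. Of 16 tested 7 rose and none fell, against 5.11% higher and 4.37% lower over all genes with a symbol. In this list 3 had a fold change below 0, and the median log2 fold change was 0.40. The summed level was 698 to 748 CPM at 1.13 ng/L against 344 to 378 CPM in solvent. Npc1 and npc2, which together carry cholesterol out of the lysosome, had 121, 115 and 114 CPM and 131, 136 and 132 CPM in the EE2 libraries. In the solvent libraries npc1 had 46.8, 49.5 and 44.5 CPM and npc2 had 63, 61.6 and 55.2 CPM. The gap was many times the spread within either group, with a log2 fold change of 1.31 for npc1 (SE 0.09, adjusted p = 7.47e-06) and 1.15 for npc2 (SE 0.10, adjusted p = 3.2e-05).

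Pla2g15, a lysosomal phospholipase, showed the largest rise of the list, with 227, 223 and 262 CPM at 1.13 ng/L against 69.6, 60.2 and 65.9 CPM in solvent (log2 fold change 1.86, SE 0.27, adjusted p = 0.00124). Gm2a, the activator protein for breakdown of the glycolipid GM2, had 46.1, 51.7 and 47.6 CPM at 1.13 ng/L against 23.2, 20.4 and 19.6 CPM in solvent (1.20). Plbd2, a phospholipase B-like lysosomal protein, rose by 0.71, and galcb, the galactosylceramidase that degrades myelin lipid, by 0.56. These 6 genes kept their calls when any 1 library was left out. Not every member followed. Scarb2a, a lysosomal membrane protein, had a log2 fold change of -0.19, and arsa, an enzyme that degrades sulfatide, one of -0.42, and neither passed. The lowest value in the list was -0.77, which did not pass either. Without 1.13 ng/L replicate C 1 member of the list fell, and with DESeq2 2 fell.

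Among 23 lysosomal protease, membrane protein and proton pump genes 7 rose and 1 fell, with a median of 0.34. The shares over all genes with a symbol were 5.11% higher and 4.37% lower. Ctsc, which encodes cathepsin C, had 56, 60.3 and 60.5 CPM in the EE2 libraries and 30.1, 25.2 and 33.5 CPM in the solvent libraries (0.99, SE 0.13, adjusted p = 0.000471). Ctsz, another cathepsin gene, rose by 0.80, ctsa, encoding a lysosomal carboxypeptidase, by 0.64, and ctsla, encoding cathepsin L, by 0.54. The membrane glycoprotein gene lamp2 rose by only 0.35, and its adjusted p was 0.105 with an offset for effective length. The gene that fell, atp6v0ca, encodes the membrane ring subunit of the proton pump. It had 54.8, 55.8 and 58.3 CPM at 1.13 ng/L, against 72.2, 70.7 and 73.4 CPM in solvent (-0.36, adjusted p = 0.00582). Mpeg1.1, the only matched marker of macrophages, which are rich in lysosomes, had 3.15 to 6.35 CPM at 1.13 ng/L and 2.95 to 3.96 CPM in solvent (adjusted p = 0.349), and its part in the lysosomal result was not tested.

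**Figure D3:**
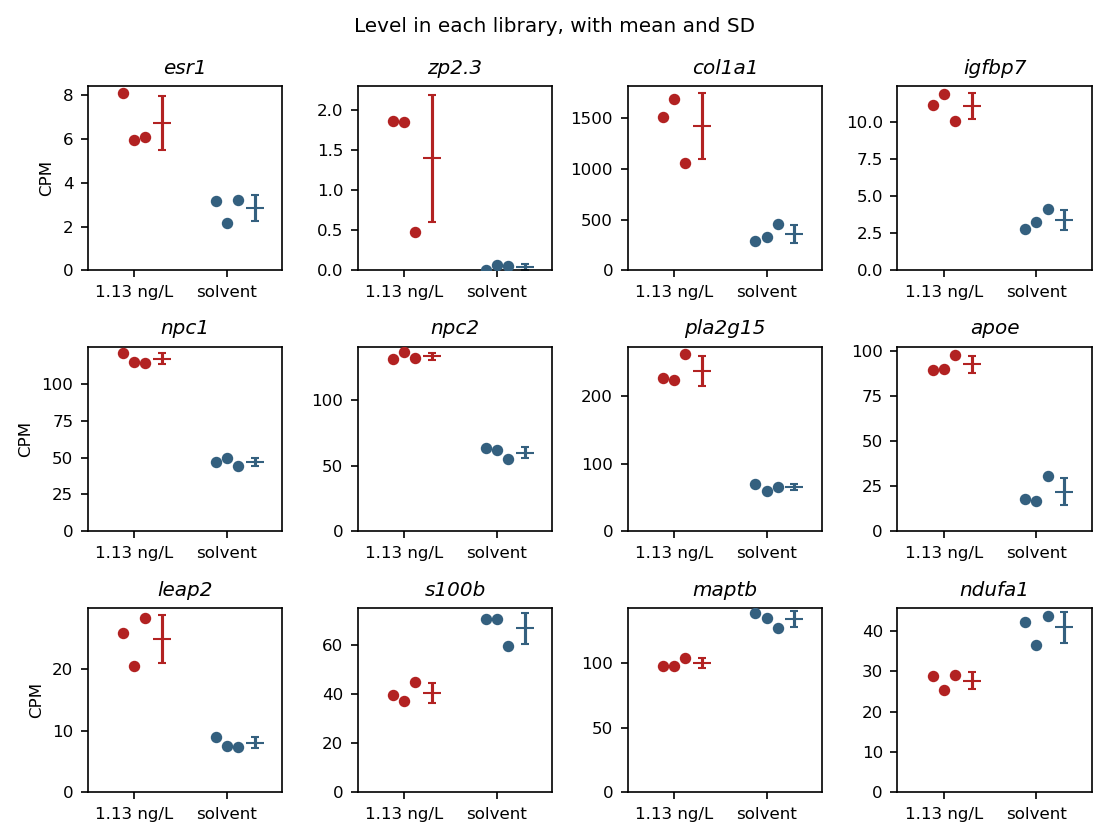
Level in CPM of 12 genes in the 3 EE2 libraries at 1.13 ng/L (red, left) and the 3 solvent libraries (blue, right), with mean and SD beside the points. The libraries of the groups do not overlap in any panel. The genes were picked from those that passed, of which 3750 of 3787 had no overlap, so this is no added support. Of all genes tested 29.8% had no overlap. S100b, maptb and ndufa1 were lower at 1.13 ng/L, and the other 9 genes higher.

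Lipoprotein and plasma protein genes moved unevenly, with a few large rises. Of 15 lipoprotein and lipid transport genes 2 rose (median 0.19), and of 22 plasma protein genes 2 rose (median 0.07), and none of either list fell. These counts are to be read beside the 5.11% higher over all genes with a symbol. Apoe, encoding a lipoprotein ligand for lipid uptake receptors, had 89.5, 89.8 and 97.9 CPM at 1.13 ng/L, against 18.1, 17 and 30.5 CPM in solvent. Its log2 fold change was 2.07 (SE 0.23, adjusted p = 0.000198). Apoa-i-2, an apolipoprotein A-I gene of high-density lipoprotein that is not in the list and was among the 10 largest rises, had 786, 700 and 805 CPM at 1.13 ng/L against 191, 168 and 221 CPM in solvent (1.98, SE 0.33, adjusted p = 0.00322). Apoba, the scaffold of yolk-derived and very-low-density lipoproteins, rose by 0.92 (adjusted p = 0.0168). The adjusted p of apoba was 0.0625 and 0.0536 without 1.13 ng/L replicates A and B and 0.0833 without solvent replicate B. It was also 0.0685 with the trend on length removed, apoba being 14030 bases long.

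Leap2, encoding a liver antimicrobial peptide, had 25.8, 20.6 and 28.3 CPM in the EE2 libraries and 9.06, 7.6 and 7.45 CPM in the solvent libraries (1.63, SE 0.19, adjusted p = 0.000287). Lipea, the hormone-sensitive lipase that frees fatty acids from stored fat, was among the 10 largest rises, with 8.22, 9.8 and 7.68 CPM at 1.13 ng/L against 2.47, 2.15 and 2.31 CPM in solvent (1.89, SE 0.17). The groups stood apart in both, as in 3750 of the 3787 genes that passed, and for lipea this was a condition of its choice. Tfa, a transferrin gene for iron transport in plasma, rose by 0.88 (adjusted p = 0.0137). This p was 0.0533 and 0.0718 without 1.13 ng/L replicates A and B, and 0.0739 and 0.0683 without solvent replicates A and B. Of 6 planned liver markers only tf was matched, as the genes tf and tfa. Together they summed to 656 to 1003 CPM at 1.13 ng/L and 392 to 598 CPM in solvent. Nearly all of this sum was tfa, so it repeats the rise of that gene. The part of liver cells in these rises was not tested.

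Several further genes of liver and lipid metabolism were chosen after their values were seen. Leg1, a secreted protein gene of liver in zebrafish, had 334, 311 and 320 CPM in the EE2 libraries, against 86.4, 91.5 and 139 CPM in the solvent libraries (log2 fold change 1.6). Glulb, encoding glutamine synthetase, had 40, 44.2 and 34.3 CPM at 1.13 ng/L against 16.5, 13.5 and 13.1 CPM in solvent (1.46, SE 0.13). Bhmt, which remakes methionine from homocysteine, had 139, 138 and 81 CPM at 1.13 ng/L against 46, 37.8 and 44.5 CPM in solvent (1.48). Plin6, a lipid droplet coat gene of fish, rose by 1.39, and slc22a7a, an organic anion transporter, by 1.63.

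Growth factor, secretory pathway, stress and cell cycle lists each held a minority of members that rose and none that fell, to be read beside the 5.11% higher over all genes with a symbol. Of 23 growth hormone and insulin-like growth factor (IGF) genes 6 rose, with a median of 0. The number was 2 without 1.13 ng/L replicate A, 1.13 ng/L replicate B or solvent replicate B, and 3 to 5 without any other library. It was also 2 with an offset for effective length, 3 with the 6 libraries alone and 4 with the trend on length removed. Igfbp7, of the IGF-binding protein family, had 11.2, 11.9 and 10.1 CPM in the EE2 libraries and 2.82, 3.3 and 4.14 CPM in the solvent libraries (1.69, SE 0.23, adjusted p = 0.00072). Igfbp5, a binding protein found in bone matrix, had 17.9, 18.1 and 17.4 CPM at 1.13 ng/L against 10.8, 10.8 and 11.9 CPM in solvent (0.67). Neither gene lost its call when 1 library was left out. The receptor gene igf1ra rose by 0.53 (adjusted p = 0.0329), with 0.0888 and 0.123 without 1.13 ng/L replicates A and B, and 0.0962 and 0.113 without solvent replicates B and C. The adjusted p of igf1ra was 0.112 with an offset for effective length and 0.0548 with the trend on length removed.

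In the 28 genes of protein folding and export from the endoplasmic reticulum, 5 rose, with a median of 0.11, and 3 rose without 1.13 ng/L replicate C, solvent replicate A or solvent replicate B. Sec24d, a coat protein for vesicles that carry large cargo such as procollagen, had 57.1, 52.6 and 47.8 CPM at 1.13 ng/L, against 36.3, 34.9 and 37.5 CPM in solvent (0.54, SE 0.07, adjusted p = 0.000682). Genes listed under the synonyms sec61ab (LOC100135961) and tram1 (LOC100136147), of the channel through which new proteins enter, rose by 0.56 and 0.87. Of 31 detoxification and stress genes 2 rose, or 4 without solvent replicate C, a share near that over all genes with a symbol. Gpx4a, which reduces lipid peroxides, had 102, 109 and 83.5 CPM at 1.13 ng/L against 45.5, 46.8 and 51 CPM in solvent (1.04), and the metal-binding metallothionein gene mt2 had 106, 94.8 and 126 CPM at 1.13 ng/L against 60.7, 61.9 and 65.4 CPM in solvent (0.80). The libraries of the groups stood apart in both, as in 3750 of the 3787 genes that passed.

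Of 19 cell cycle genes 2 passed, the replication helicase subunit gene mcm7 (0.49, adjusted p = 0.0352) and the topoisomerase gene top2a (0.36, adjusted p = 0.0477). Top2a had an adjusted p between 0.0531 and 0.163 without any one library, and 0.123 with the trend on length removed. Mcm7 had one between 0.0669 and 0.151 without any library other than solvent replicate C. In the epidermis list of 6 genes 2 rose, with a median of 0.64, and none rose without 1.13 ng/L replicate B, solvent replicate A or solvent replicate B. Cldn1, a tight junction gene, had 4.82, 6.81 and 3.32 CPM at 1.13 ng/L against 1.24, 1.72 and 2.31 CPM in solvent (1.5, adjusted p = 0.0116). The adjusted p of cldn1 was 0.066 without 1.13 ng/L replicate B, and 0.0644 and 0.0523 without solvent replicates A and B. Krt5, an abundant skin keratin gene, averaged 2258 CPM at 1.13 ng/L and 1523 CPM in solvent and did not pass (adjusted p = 0.246). The other rises among the 10 largest with a symbol included styk1b, a receptor-like kinase gene, with 4.79, 6.81 and 3.01 CPM at 1.13 ng/L against 0.755, 1 and 0.887 CPM in solvent (2.46), and asb11, which marks proteins for degradation, with 5.36, 4.3 and 6.36 CPM at 1.13 ng/L against 1.44, 1.51 and 1.18 CPM in solvent (1.95).

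Some neural genes fell at 1.13 ng/L. Of 23 tested neural and glial genes 7 fell and none rose, 19 had a fold change below 0, and the median was -0.40. Over all genes with a symbol 4.37% were lower. Their summed level was 813 to 912 CPM in the EE2 libraries and 1025 to 1065 CPM in the solvent libraries. The groups did not overlap in this sum, nor in those of the collagen, lysosomal lipid and digestive lists, among others. Of all single genes tested 29.8% had no overlap. The number that fell was 4 without 1.13 ng/L replicate B, solvent replicate A or solvent replicate B. S100b, a calcium-binding protein gene of glia, had 39.7, 37.2 and 45.2 CPM at 1.13 ng/L, against 70.9, 70.6 and 59.7 CPM in solvent (-0.72, SE 0.14, adjusted p = 0.00674). Maptb, encoding the microtubule-binding protein tau of axons, had 98, 97.4 and 104 CPM at 1.13 ng/L against 139, 135 and 127 CPM in solvent (-0.42, SE 0.08, adjusted p = 0.00569). Neurod1, a transcription factor gene of neuronal differentiation, had 19.8, 15.6 and 18.9 CPM at 1.13 ng/L against 25.8, 25.7 and 23.5 CPM in solvent (-0.47). These 3 kept their calls when any 1 library was left out, as did chga, which is also in this list. With an offset for effective length the adjusted p was 0.0565 for s100b and 0.0622 for neurod1, and 0.0053 for maptb.

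The other neural genes that fell were more dependent on single libraries. Sox2, a transcription factor gene of neural precursors, fell by 0.47 (adjusted p = 0.0177). Its adjusted p was 0.0692 and 0.0805 without 1.13 ng/L replicates A and B, and 0.0865 and 0.052 without solvent replicates A and B. Slc32a1, the vesicle transporter of inhibitory neurons, also fell by 0.47 (adjusted p = 0.027). This p was 0.0997 and 0.118 without 1.13 ng/L replicates A and B, and 0.0551 and 0.0979 without solvent replicates A and B. The myelin genes mpz and mbpa had log2 fold changes of -0.65 and -0.53 and did not pass. Glial marker genes (mbpa, mpz and s100b) summed to 69.4 to 82.5 CPM at 1.13 ng/L and 116 to 127 CPM in solvent, and whether the share of neural tissue differed was not tested.

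Some photoreceptor genes of the eye list were also lower. Of 15 genes 2 fell and 1 rose, with a median of -0.11, against 4.37% lower and 5.11% higher over all genes with a symbol. Among the 15, 2 (rhoa and rhoab) are cytoskeletal genes matched only by the shape of their symbols. Saga, which shuts off activated rhodopsin, had 11.8, 8.53 and 9.51 CPM at 1.13 ng/L, against 18.5, 16.5 and 17 CPM in solvent (-0.80, adjusted p = 0.0205). Its adjusted p was 0.0954 and 0.05 without 1.13 ng/L replicates B and C, and 0.0766 and 0.052 without solvent replicates A and B. Pde6c, the phosphodiesterase of cones, fell by 0.86 (adjusted p = 0.0146), with 0.0726 without 1.13 ng/L replicate B, and 0.0538 and 0.0747 without solvent replicates A and B. Rhodopsin itself (rho) averaged 182 CPM at 1.13 ng/L and 302 CPM in solvent (-0.73, adjusted p = 0.0554). Aipl1, a chaperone for the photoreceptor phosphodiesterase that was chosen after its values were seen, had 12.7, 11.2 and 10.3 CPM at 1.13 ng/L against 19.1, 18.3 and 18.5 CPM in solvent (-0.71, adjusted p = 0.00603). The one that rose, lim2.2 of the lens fibre membrane, had an adjusted p of 0.0411, and of 0.0636 to 0.135 without any one library.

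Most of the 10 largest falls among genes with a symbol were in genes of low level. Mnx1, a transcription factor gene of motor neurons and pancreas, had 0.713, 0.651 and 0.726 CPM in the EE2 libraries and 1.51, 1.51 and 1.6 CPM in the solvent libraries (-1.14, SE 0.23, adjusted p = 0.00875). It kept its call without any one library, and its adjusted p was 0.0607 when counts were thinned to the lowest library total. Bsnd, a chloride channel subunit of kidney and ion-transporting cells, had 1.43, 1.11 and 0.899 CPM at 1.13 ng/L against 3.36, 2.8 and 2.72 CPM in solvent (-1.37, adjusted p = 0.0173). This p was 0.0729 and 0.0528 without 1.13 ng/L replicates B and C, 0.0694 without solvent replicate A and 0.0688 in thinned counts. Star, which brings cholesterol to the first step of steroid synthesis, had 0.747, 0.977 and 0.623 CPM at 1.13 ng/L against 2.54, 1.43 and 1.42 CPM in solvent (-1.19, adjusted p = 0.0327). The adjusted p of star was 0.0534 to 0.16 without any library other than solvent replicate C, and 0.2 in thinned counts.

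Cldn18, a tight junction gene of stomach and lung-type epithelia in mammals, fell by 1.15 (adjusted p = 0.0152), with 0.0556 and 0.0741 without 1.13 ng/L replicates A and B and 0.0694 without solvent replicate A. Cyp2k4, a cytochrome P450 gene of fish, fell by 1.19 (adjusted p = 0.0119), with 0.0658 without 1.13 ng/L replicate B and 0.0596 without solvent replicate B. Cnfn, a protein gene of the cornified skin envelope in mammals, fell by 1.12 (adjusted p = 0.0363), and its adjusted p lay between 0.0613 and 0.149 without any one library. Nkx2.2a, a developmental transcription factor gene of neural tube and endocrine pancreas, was chosen after its values were seen. It had 1.49, 1.4 and 1.59 CPM at 1.13 ng/L against 3.16, 3.08 and 3.02 CPM in solvent (-1.04, SE 0.19, adjusted p = 0.00552). The other 4 of the 10 largest falls, kt3k, slc1a7b, nkx2.4a and cldn15la, had log2 fold changes of -1.39, -1.32, -1.24 and -1.12. Without 1.13 ng/L replicate B their adjusted p-values were 0.0567, 0.0683, 0.0514 and 0.169. Other libraries also ended these calls. For kt3k the adjusted p was 0.0567 to 0.0613 without 1.13 ng/L replicate A or C or solvent replicate C, and for slc1a7b 0.0719 without solvent replicate B. For nkx2.4a it was 0.0541 to 0.0729 without 1.13 ng/L replicate A or solvent replicate A or B, and for cldn15la 0.0769 to 0.126 without 1.13 ng/L replicate C or any one solvent library.

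Some genes of the respiratory chain and the ribosome fell by small amounts. Of 30 respiratory chain genes 6 fell and none rose, with 26 below 0 and a median of -0.25. Of 35 ribosomal protein genes 4 fell and none rose, with 33 below 0 and a median of -0.25. Over all genes with a symbol 4.37% were lower. Both lists are short transcripts, with median lengths of 808 and 732 bases, and with the trend on length removed the medians were -0.19 and -0.20. Without 1.13 ng/L replicate B 2 respiratory chain genes and no ribosomal gene fell, and without any other library these counts were 3 to 4 and 1 to 2. Ndufa1, a subunit of complex I, had 28.8, 25.3 and 29.1 CPM at 1.13 ng/L against 42.3, 36.6 and 43.8 CPM in solvent (-0.56, SE 0.10, adjusted p = 0.00412). Atp5mc3b, of the ATP synthase ring, had 125, 117 and 113 CPM at 1.13 ng/L against 156, 152 and 154 CPM in solvent (-0.39, SE 0.07, adjusted p = 0.00541). Both kept their calls without any one library. Rpl38, of the large ribosomal subunit, fell by 0.56 (adjusted p = 0.0156), with 0.0754 without 1.13 ng/L replicate B and 0.081 with an offset for effective length. With that offset none of the 4 ribosomal genes kept its call (adjusted p = 0.0664 to 0.145). The lists then held 2 ribosomal and 6 respiratory chain genes that fell.

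In the remaining lists few genes passed, with shares near the 5.11% higher and 4.37% lower over all genes with a symbol or resting on 1 or 2 genes. Of 53 splicing and RNA-binding genes 4 fell (median -0.03), or 2 without 1.13 ng/L replicate A, among them snrpe, a small core protein of the spliceosome (-0.37, adjusted p = 0.00949, and 0.18 with an offset for effective length). With that offset none of these 4 kept its call (adjusted p = 0.0793 to 0.18), and 1 member of the list fell. Of 20 skeletal muscle genes 2 fell (median -0.16), or 1 without any one library. With the trend on length removed 1 fell (median -0.12). Myoz1a, of the sarcomere's Z-disc, had 109, 91 and 89.9 CPM at 1.13 ng/L against 128, 133 and 138 CPM in solvent (-0.46, SE 0.09, adjusted p = 0.00711). The calcium-buffering gene pvalb1 had 3.29, 3.91 and 5.57 CPM at 1.13 ng/L against 24.9, 46 and 65 CPM in solvent, with no overlap between the groups, but did not pass (adjusted p = 0.11). Of 12 sterol synthesis genes 2 fell (median -0.06), or 1 without 1.13 ng/L replicate A or C or solvent replicate A or B, with pmvk, a mevalonate pathway kinase, at -0.48 (adjusted p = 0.00624, and 0.0976 with an offset for effective length).

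The steroid and bile list (7 genes, median -0.15) and the gill and ionocyte list (13 genes, median -0.11) each had 1 rise and 1 fall. The falls were star and bsnd. The rises were hsd17b12a, which acts in fatty acid elongation (0.71, adjusted p = 0.0267), and the water channel gene aqp3a (0.64, adjusted p = 0.0378). Hsd17b12a had adjusted p-values of 0.0859 and 0.117 without 1.13 ng/L replicates A and B, and 0.107 and 0.12 without solvent replicates A and B. For aqp3a these were 0.101 and 0.153, and 0.157 and 0.157. Of 26 genes in the proteasome list 1 fell (median -0.15), psme3ip1, whose product binds a proteasome activator and is not a subunit (adjusted p = 0.0494, and 0.0532 to 0.143 without any one library). With the trend on length removed no member of that list fell (psme3ip1 adjusted p = 0.0821, list median -0.10).

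No member passed in 3 lists, although without 1.13 ng/L replicate A 1 digestive gene fell. The 27 immune genes had a median of 0.19. The 12 erythrocyte genes had a median of -0.30, with 11 below 0. All 8 digestive genes were below 0, with a median of -0.70, among them the intestinal fatty acid binding protein gene fabp2 (16.9 CPM on average at 1.13 ng/L and 30.6 CPM in solvent, adjusted p = 0.103) and the brush border gene vil1 (14 CPM at 1.13 ng/L and 20.9 CPM in solvent, adjusted p = 0.0764). The summed level of the digestive list was 28.5 to 57.2 CPM at 1.13 ng/L and 62.4 to 77.6 CPM in solvent.

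The largest differences of all were in transcripts without a gene symbol that were absent from one group. Among genes that passed, 28 were higher at 1.13 ng/L with 0 reads in every solvent library, and 13 were lower with 0 reads in every EE2 library, and none of them had a symbol. XM_021620538.1 had 10.6, 18.7 and 10.7 CPM in the EE2 libraries and 0 in solvent, at least 207-fold higher when solvent is set at a floor of 3 reads in all (adjusted p = 0.0207). Its adjusted p was 0.0509 and 0.0699 without 1.13 ng/L replicates A and B, and 0.0649 and 0.0611 without solvent replicates A and B. It averaged 7.5 CPM at 1.57 ng/L and 0.42 CPM at 16.3 ng/L, and was at 0 at 6.22 and 55.1 ng/L, the groups with totals close to those of solvent. XM_021590030.1, with 7.5, 8.11 and 5.6 CPM at 1.13 ng/L and 0 in solvent, was at least 110-fold higher (adjusted p = 0.0142), with 0.053 and 0.051 without solvent replicates A and B. XM_021602397.1 was uneven, with 7.67, 0.879 and 4.46 CPM at 1.13 ng/L and 0 in solvent (adjusted p = 0.0248). Its adjusted p was 0.0628 without 1.13 ng/L replicate A and 0.0536 to 0.081 without any one solvent library. At 1.57, 6.22 and 16.3 ng/L XM_021590030.1 averaged 3.76, 6.51 and 1.33 CPM, and XM_021602397.1 averaged 2.11, 2.52 and 2.8 CPM. Both were at 0 at 55.1 ng/L, the group whose lengths were handled like those of solvent. The part of length handling in these levels was not tested.

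XR_002472387.1, of 439 bases, had 0 reads in the EE2 libraries and 5.84, 4.44 and 5.38 CPM in the solvent libraries, at least 152-fold lower at 1.13 ng/L. It was also at 0 at 1.57 and 16.3 ng/L, whereas it averaged 6.01 ± 0.661 CPM at 6.22 ng/L and 5.45 ± 1.11 CPM at 55.1 ng/L (SD, n = 3). The groups in which it was at 0 are those with the highest library totals, and the part of depth and length handling was not tested. XM_021558536.1 had 0 reads at 1.13 ng/L and 2.61, 6.09 and 2.48 CPM in solvent, at least 106-fold lower, and averaged between 2.84 and 5.34 CPM in the other 4 groups. Both kept their calls without any one library. XM_021583643.1 had 0 reads at 1.13 ng/L against 5.56, 0.287 and 7.39 CPM in solvent (adjusted p = 0.0464), with 0.0535 to 0.131 without any one library. It was likewise at 0 at 1.57 and 16.3 ng/L and averaged 3.09 CPM at 6.22 ng/L and 2.67 CPM at 55.1 ng/L.

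Several genes changed at 1.13 ng/L were near the solvent level again at higher concentrations. Esr1 and zp2.3 were not among them. Both had a higher mean at each step up in concentration. Col1a1 averaged 1415 ± 324 CPM at 1.13 ng/L and 1200 ± 181 CPM at 1.57 ng/L. Above these concentrations it averaged 418 ± 68.3 CPM (6.22 ng/L), 558 ± 161 CPM (16.3 ng/L) and 323 ± 66.4 CPM (55.1 ng/L), against 357 ± 91.1 CPM in solvent (SD, n = 3 each). The part of depth and length handling in these levels was not tested.

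Npc1 and pla2g15 were below the solvent mean from 6.22 ng/L upward. Npc1 averaged 117 ± 3.94 CPM at 1.13 ng/L and 69.8 ± 6.54 CPM at 1.57 ng/L, then 35.9 ± 3.92 CPM (6.22 ng/L), 39.1 ± 3.6 CPM (16.3 ng/L) and 33.2 ± 1.03 CPM (55.1 ng/L), against 46.9 ± 2.51 CPM in solvent. Pla2g15 averaged 237 CPM at 1.13 ng/L and 139 at 1.57 ng/L, with 39.6 and 43.6 at 6.22 and 16.3 ng/L, 19.3 at 55.1 ng/L and 65.3 in solvent. Npc2 did not return as far, with 84.1 CPM at 6.22 ng/L, 89.8 CPM at 16.3 ng/L and 94.9 CPM at 55.1 ng/L, against 59.9 CPM in solvent. Apoe stood at 92.4 ± 4.76 CPM at 1.13 ng/L and 14.8 to 23.9 CPM on average from 6.22 ng/L upward, against 21.9 ± 7.5 CPM in solvent. Leg1, leap2 and igfbp7 were likewise highest at 1.13 or 1.57 ng/L. Igfbp7 averaged 11.1 CPM at 1.13 ng/L and 11.8 CPM at 1.57 ng/L, against 3.42 CPM in solvent.

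Other genes took other courses. Bhmt averaged 119 ± 33.1 CPM at 1.13 ng/L and 69 ± 11.2 CPM at 1.57 ng/L, then 63.3 ± 19.5 CPM (6.22 ng/L), 84.1 ± 14.3 CPM (16.3 ng/L) and 129 ± 2.58 CPM (55.1 ng/L), against 42.8 ± 4.34 CPM in solvent. S100b averaged 40.7 ± 4.1 CPM at 1.13 ng/L and 44.5 ± 8.01 CPM at 1.57 ng/L, then 72.3 ± 7.65 CPM (6.22 ng/L), 51.6 ± 4.87 CPM (16.3 ng/L) and 65.5 ± 8.62 CPM (55.1 ng/L), against 67 ± 6.4 CPM in solvent. The s100b means were thus lowest in the 3 groups with the highest library totals. Ndufa1 was lowest in the same 3 groups, with 27.7, 31.9 and 38.1 CPM at 1.13, 1.57 and 16.3 ng/L, 48.8 and 50.5 CPM at 6.22 and 55.1 ng/L, and 40.9 CPM in solvent. Sox2, chga, atp6v0ca and snrpe were lowest in these groups too. Sox2 averaged 17.4, 18.7 and 18.6 CPM there, against 24.1 CPM in solvent and 23.1 and 25.3 CPM at 6.22 and 55.1 ng/L. LOC100135961, which rose, was highest in these groups, with 79.2, 74 and 77.2 CPM against 53.6 to 58.5 CPM in the others. Not every fall took this order, as atp5mc3b averaged 155 CPM at 16.3 ng/L and 154 CPM in solvent. The part of depth and length handling was not tested. No test was run between these concentrations.

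**Figure D4:**
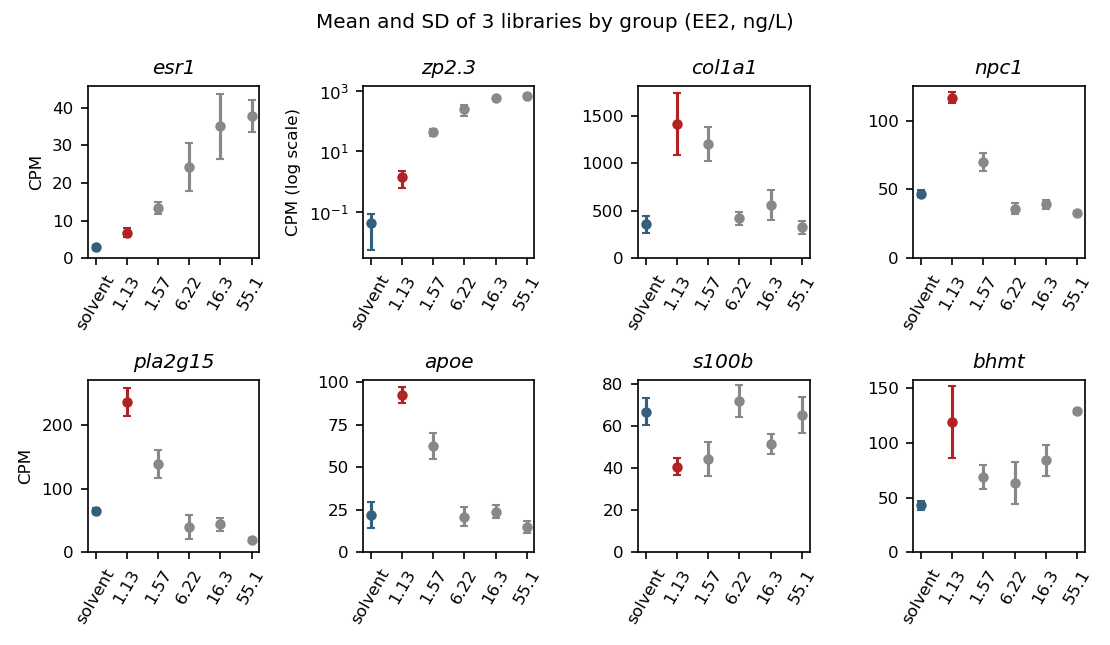
Mean and SD in CPM of 3 libraries for 8 genes in solvent and at 5 EE2 concentrations in ng/L, with 1.13 ng/L in red and solvent in blue (zp2.3 on a log axis). Esr1 and zp2.3 are higher at each step up in concentration, whereas col1a1, npc1, pla2g15 and apoe are highest at 1.13 ng/L.

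The authors' deposited table for 1.13 ng/L, computed by transcript with DESeq2, made more calls. Of 28379 transcripts with an adjusted p there, 4986 (17.6%) passed in the authors' deposited table, 2675 higher (9.43%) and 2311 lower (8.14%). For genes with 1 transcript, log2 fold changes in the authors' deposited table were close to those above, at 2 for col1a1, 1.87 for pla2g15, 2.09 for apoe and -0.71 for s100b. Where a gene has several transcripts, they were close in some genes, such as apoa-i-2 (1.94 and 2.01 in the authors' deposited table). In other genes they differed. In the authors' deposited table the fibromodulin gene fmoda had 1.48 for one transcript (adjusted p = 0.000601) and -1.01 for the other (adjusted p = 0.0771). Likewise gpx4a had 1.54 (adjusted p = 1.58e-08) and -0.14 (adjusted p = 0.525) in the authors' deposited table. Transcripts of lamp2 passed in opposite directions in the authors' deposited table, with 0.61 (adjusted p = 1.21e-05) and -0.62 (adjusted p = 0.0369). A further lamp2 transcript had 1.15 there (adjusted p = 0.416). The transcripts of fmoda, gpx4a and lamp2 were singled out after their values were seen. No esr1 transcript passed in the authors' deposited table, where they had 2.12, -6.04 and 1.35 (adjusted p = 0.474, 0.109 and 0.324). Zp2.3 passed in the authors' deposited table, with 5.01 (adjusted p = 0.00011).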

How the data were processed

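The submitters' processing notes name Trimmomatic 0.38 (a read trimmer), kallisto (a transcript quantifier) and DESeq2. Versions of kallisto and of the authors' DESeq2, and any genome build, are not given in the sources used here. Per the file headers, each deposited per-sample table lists 79244 RefSeq transcripts with estimated counts, length and effective length. The authors' deposited comparison table for 1.13 ng/L gives, per the file headers, a mean normalised count as its signal, a log2 fold change with its standard error and an adjusted p-value.

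Gene names came from the RefSeq table of assembly GCF_013265735.2 (USDA_OmykA_1.1), joined on transcript accessions with the version dropped. Of the transcripts 42410 (53.5%) matched, 1083 with the same version. Estimated counts were summed by gene and rounded, which gave 61973 features, of which 25139 are gene sums (6932 with a symbol) and 36834 are single unmatched transcripts. Both kinds are called genes here, and near copies can share reads.

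Counts of all 18 libraries passed filterByExpr, received TMM factors and were fitted in 1 model without a replicate block (edgeR 4.0.16, R 4.3.3, quasi-likelihood F test, 12 residual degrees of freedom). The contrast was 1.13 ng/L minus solvent, and Benjamini-Hochberg adjustment covered the 46999 genes tested, with a threshold of 0.05. An adjusted p of a gene is this value unless the authors' table is named. Errors of fold changes are standard errors, and levels are CPM with TMM factors. In 3 length checks a spline of length was removed, an offset for effective length was added, or genes under 1000 bases were left out. In another check counts were thinned to the lowest library total. DESeq2 1.42.0 served as an alternative. The fit was tested on simulated data in which 200 genes were changed 2-fold. It recovered 41.5% of them, and 6.7% of its calls were false. A gene that did not pass may therefore still differ.

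The named set held the 10 largest rises and falls with a symbol (at least 1 CPM in the higher group, no overlap of libraries). It also held the 3 largest each way without one, up to 4 changed members of each list by lowest p, and the estrogen genes. Not all of these are described above. Svild and zgc:113279, of the 10 largest rises, and list members such as rplp1, rps28 and myog are not. Svild, rplp1, rps28 and myog lost their calls in all 6 leave-one-out fits, and zgc:113279 in 3 of them. Other changed list members, members that did not pass, and genes said to be chosen after their values were seen were added later. Of 26 gene lists, the one for the hatching gland matched no gene. Members were found by symbol or synonym. The comparison, the lists and the genes were chosen with earlier results of these data known. No sequence is shown, and promoters were not searched. The values of 1 gene are not reported here.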

Additional observations from a re-analysis of the deposited data

How the results depend on the processing

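The number of genes past the threshold was 3787. It was 6434 with DESeq2, 1624 with the 6 libraries alone and 2247 with single transcripts. With single libraries left out it lay between 1350 and 3830. The number of list members past the threshold was 91, and was 150 with DESeq2 and 50 to 91 with single libraries left out. Of esr1 and zp2.3, 1 passed with single transcripts and 0 to 2 with single libraries left out. Of the 126 named genes 123 passed, against 77 with the 6 libraries alone and 68 to 102 with single libraries left out, and 60 passed in all 6 leave-one-out fits. Of those that passed, only dnajc10, of protein folding in the endoplasmic reticulum, changed sign, to -0.66 with single transcripts (adjusted p = 0.829 in edgeR). Of the 3 that did not pass, vtg3 (0.55) was -1.11 without 1.13 ng/L replicate B, -0.06 without solvent replicate C and -0.01 in thinned counts, and erb2 (-0.04) was 0.02 in thinned counts. With an offset for effective length 31 of the named genes lost their call, with the trend on length removed 10 and in thinned counts 16. The causes were not tested.

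Replicate letters are shared across groups, but same-letter libraries did not deviate together (correlations of -0.012, -0.009 and -0.032 across genes). No pairing by letter was thus seen over all genes, but these correlations would not show one that touches few genes. With a replicate block 3403 genes passed, or 3334 with the trend on length removed as well, and 110 and 103 of the named genes.

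Depth limits the low genes. Levels under 1 CPM rest on few reads in the solvent libraries, which hold the lower totals of the 2 groups compared.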
